A study of Mus musculus with 16 samples.

Results

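Lung transcripts of pregnant and non-pregnant mice were compared after both had received titanium dioxide (TiO2) by nose, a particle commonly used as an inert dust. The comparison was defined by the labels alone: 4 arrays of pregnant mice given TiO2 were set against 4 arrays of non-pregnant mice given TiO2, 8 of the 16 arrays in the series. All mice were female BALB/c, an inbred laboratory strain. Each received 1 dose of 50 ug of respirable TiO2, baked to remove endotoxin, under light halothane, and RNA of the whole lung was prepared at 19 hours. The pregnant mice stood at day 14 of gestation. The other 8 arrays, 4 of pregnant and 4 of non-pregnant mice given the phosphate-buffered saline vehicle (PBS), served for the same contrast without particles and for the estimate of the spread. The study asked whether a particle that normally provokes little inflammation provokes more in pregnancy. The labels do not say whether each sample is 1 mouse, so p-values measure only the spread between these samples, which may be technical.

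The lung carries a resident population of alveolar macrophages, which clear inhaled particles through scavenger receptors such as Marco, and it recruits neutrophils from blood when those macrophages release interleukin 1 and chemokines. Its airway lining is guarded by IgA, which plasma cells secrete as a dimer held by the joining chain and which the epithelium carries outward on the polymeric immunoglobulin receptor. Pregnancy brings a rise of circulating neutrophils, a wider blood volume and changed steroid hormones, so blood cells, secreted antibody and hormone-responsive genes are all groups whose levels a lung sample can report.

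Levels are given as log2(intensity + 16) after quantile normalization, so 4 is the floor and a difference of 1 is a doubling of the offset intensity, which understates changes of weak signals. A gene is called when limma's Benjamini-Hochberg adjusted p over the 12369 genes tested was under 0.05. Mzb1 and the uncalled list members given for contrast without an adjusted p were chosen after their values were seen. Errors of differences are standard errors of the limma fit, and errors of group levels are standard deviations (SD, n = 4).

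Some arrays stood apart before any contrast was made. Lung markers were high on all 8 TiO2 arrays, for example the surfactant protein Sftpc at 13.15 to 13.29 and the alveolar type 1 receptor Ager at 13.16 to 13.30. Pregnant TiO2 replicate 2 was low in the squamous keratin Krt13 (5.21 against at least 12.28 on the other TiO2 arrays) and the skeletal muscle actin Acta1 (6.56 against at least 12.12). Its correlation with the other pregnant TiO2 arrays went down to 0.939, while non-pregnant TiO2 arrays correlated with each other at 0.983 to 0.989. The lymph node venule mucin Glycam1 was near the floor on that array (4.15) and on non-pregnant TiO2 replicates 1 and 4 (4.14 and 4.60). The 18S ribosomal RNA signal was 101 ± 51 on pregnant and 358 ± 200 on non-pregnant TiO2 arrays (SD, n = 4), and the 3′ to 5′ ratio of the beta-actin probe sets was 1.38 ± 0.067 and 1.34 ± 0.042. The part of these differences in the results was not tested.

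Pregnant lungs after TiO2 had more of several antibody, neutrophil, platelet, macrophage and complement transcripts than non-pregnant lungs, and less of several chaperone and glucocorticoid-responsive transcripts. The calls on the lists of heat-shock chaperones and glucocorticoid targets were all lost when the most variable probe set stood for each gene. This covers only the members of those lists. Of the 12369 genes, 233 were called (1.88%), 170 of them higher in pregnant lungs (1.37%) and 63 lower (0.509%). The median called rise was 0.60 log2 and the median called fall −0.50, against 0.03 over all genes. Of all genes, 55.5% lay above 0, the share to set beside the list counts below. Rises reached further than falls: 23 were at or above 1 log2, and 2 falls were at or beyond −1. In 228 of the 233 the 4 pregnant and 4 non-pregnant values did not overlap, which was so for 15.7% of all genes (9.56% with pregnant lungs higher and 6.18% with pregnant lungs lower). The lowest adjusted p was 0.00331, and 2527 genes had an unadjusted p under 0.05. With values as deposited, without quantile normalization, the median of all genes moved to −0.08 and 21 genes were called, 14 higher and 7 lower, 17 of them among the 233.

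The number of calls moved with the arrays used. All 233 kept their sign in each of the 16 limma fits that left out 1 array, and 38 were called in every one (28 higher, 10 lower). Without non-pregnant TiO2 replicate 1, 2, 3 or 4 there were 52, 97, 57 or 113 calls. Without pregnant TiO2 replicate 1, 3 or 4 there were 52, 118 or 69, and without replicate 2, the one lacking squamous and muscle transcripts, there were 275, of which 164 were among the 233. Without the 3 arrays of low Glycam1, which leaves 3 pregnant against 2 non-pregnant arrays, 5 genes were called, 4 of them among the 233; 230 of the 233 had an unadjusted p under 0.05 there, in the same direction. The PBS arrays entered this contrast through the normalization and the spread. Fits with arrays left out kept the normalization of all 16 arrays, so leaving out a PBS array changed the spread only. Without non-pregnant PBS replicate 1, 2, 3 or 4 there were 271, 331, 382 or 225 calls. With the most variable probe set standing for each gene there were 118 calls, 97 of them among the 233.

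**Figure D1:**
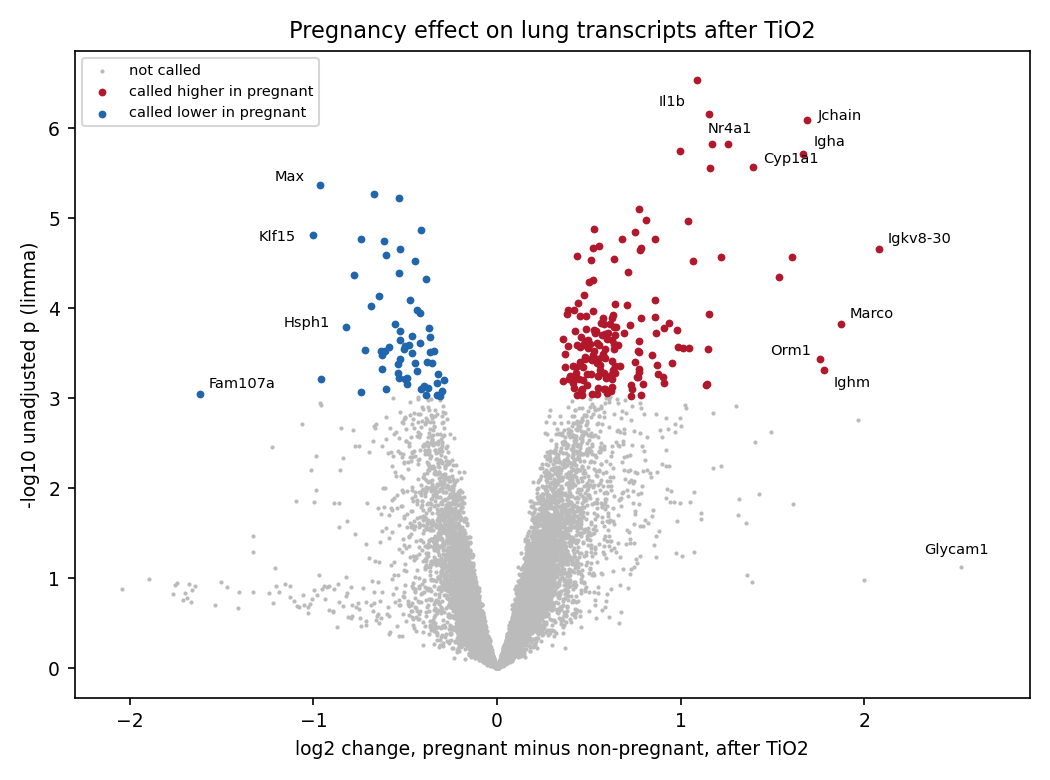
Each point is 1 of 12369 genes, with the log2 difference of pregnant minus non-pregnant mice after TiO2 on the x axis and −log10 of limma's unadjusted p on the y axis; red and blue points are the 170 genes called higher and the 63 called lower. Called rises extend to 2.08 (Igkv8-30) and called falls to −1.62 (Fam107a), and Glycam1, at 2.53, lies far out without a call.

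Antibody transcripts were among the largest rises. Igha, the constant region of the IgA heavy chain, was at 11.81, 11.91, 11.83 and 11.92 on the 4 pregnant arrays and at 10.47, 10.15, 10.03 and 10.17 on the 4 non-pregnant ones. Every pregnant value lay more than 1 log2 above every non-pregnant one, and the difference was 1.67 ± 0.23 (limma adjusted p = 0.00343). Jchain, the chain that joins IgA dimers and IgM pentamers, stood at 10.62, 9.76, 10.56 and 10.41 against 8.50, 9.24, 8.69 and 8.17. The groups again did not overlap, although pregnant replicate 2 came close to non-pregnant replicate 2, and the rise was 1.69 ± 0.21 (limma adjusted p = 0.00331). Mzb1, a protein of the endoplasmic reticulum of antibody-secreting cells, rose by 1.00 ± 0.13 (limma adjusted p = 0.00343), with 7.69 to 8.12 on pregnant and 6.61 to 6.88 on non-pregnant arrays. Igha, Jchain and Mzb1 were called in all 16 fits that left out 1 array. In a lung homogenate, more cells of a type and more RNA per cell cannot be told apart.

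Of 11 immunoglobulin constant and variable genes tested, 11 lay above 0 and 9 were called higher, with changes of 0.87 to 2.08 and a median of 1.22. The largest mean difference was that of Igkv8-30, a kappa variable segment. It was at 11.85, 11.21, 11.44 and 11.66 in pregnant and 9.22, 10.03, 9.12 and 9.47 in non-pregnant lungs. Its rise was 2.08 ± 0.35 (limma adjusted p = 0.0096), held in all 16 fits that left out 1 array. Probe sets of variable segments can read near-identical copies, so which segment rose is uncertain. Ighm, the IgM heavy chain, was less even: pregnant arrays read 12.12, 10.47, 11.88 and 11.57 and non-pregnant ones 8.62, 10.69, 10.12 and 9.50. The low pregnant array is the one lacking squamous transcripts, and it fell below non-pregnant replicate 2, so the groups overlapped. The difference of 1.78 ± 0.40 passed (limma adjusted p = 0.0357), but the adjusted p went up to 0.118 when 1 array was left out, and Ighm was at 0.97 (limma adjusted p = 0.424) with its most variable probe set.

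The list of plasma cell and IgA transport genes held 6 called higher and 0 called lower among 12 tested, with a median of 0.72. Beside Igha, Jchain, Ighm, Mzb1 and the lambda segment Iglv1 (1.14 ± 0.27, limma adjusted p = 0.0423), these include Pigr, the epithelial receptor that carries polymeric IgA into the airway. Pigr read 10.31, 9.99, 9.83 and 10.08 in pregnant and 9.55, 9.43, 9.04 and 9.64 in non-pregnant lungs, without overlap, and rose by 0.64 ± 0.14 (limma adjusted p = 0.0289). With the most variable probe set of each gene, Pigr was at 0.54 and Iglv1 at 1.14, neither called (limma adjusted p = 0.137 and 0.0583). The plasma cell regulators Xbp1 (−0.08) and Prdm1 (0.23) were not called. Without pregnant TiO2 replicate 2 the list had 6 calls and a median of 0.69, and without the 3 arrays of low Glycam1 it had 1 call and a median of 0.78.

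Genes of mature B cells had a wider spread. All 19 tested lay above 0, with a median of 0.60, and 1 was called: Cr2, the complement receptor that lowers the B-cell activation threshold, at 1.01 ± 0.22 (limma adjusted p = 0.0288). Cd79a, the signalling chain of the B-cell receptor, differed by 0.90 without a call. The mean level of the list ran from 7.27 to 7.74 on pregnant and from 6.62 to 7.27 on non-pregnant TiO2 arrays. Glycam1 was at 10.76, 4.15, 10.56 and 10.73 in pregnant and 4.14, 9.29, 8.06 and 4.60 in non-pregnant lungs, a difference of 2.53 ± 1.32 that did not pass (limma adjusted p = 0.293). On pregnant replicate 2, where Glycam1 was near the floor, Cd79a stood at 8.81, the highest of the 8 TiO2 arrays. Without the 3 arrays low in Glycam1 the B-cell median was 0.34, and without pregnant TiO2 replicate 2 it was 0.55. Of the T-cell genes, 21 of 22 lay above 0, with a median of 0.41 and 0 called (0.32 without the 3 arrays). Of the adipose genes, 20 of 21 lay above 0, with a median of 0.82 and 0 called. Their list means were 8.21 to 9.94 on pregnant and 7.97 to 9.10 on non-pregnant arrays. Without pregnant TiO2 replicate 2, 8 of the 21 adipose genes were called higher, with a median of 1.09. Glycam1 was called there as well, at 4.16 (limma adjusted p = 0.0349). Without the 3 arrays of low Glycam1, 0 adipose genes were called, with a median of 0.99. The part of lymph node or fat tissue in the antibody and lymphocyte differences was not tested.

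**Figure D2:**
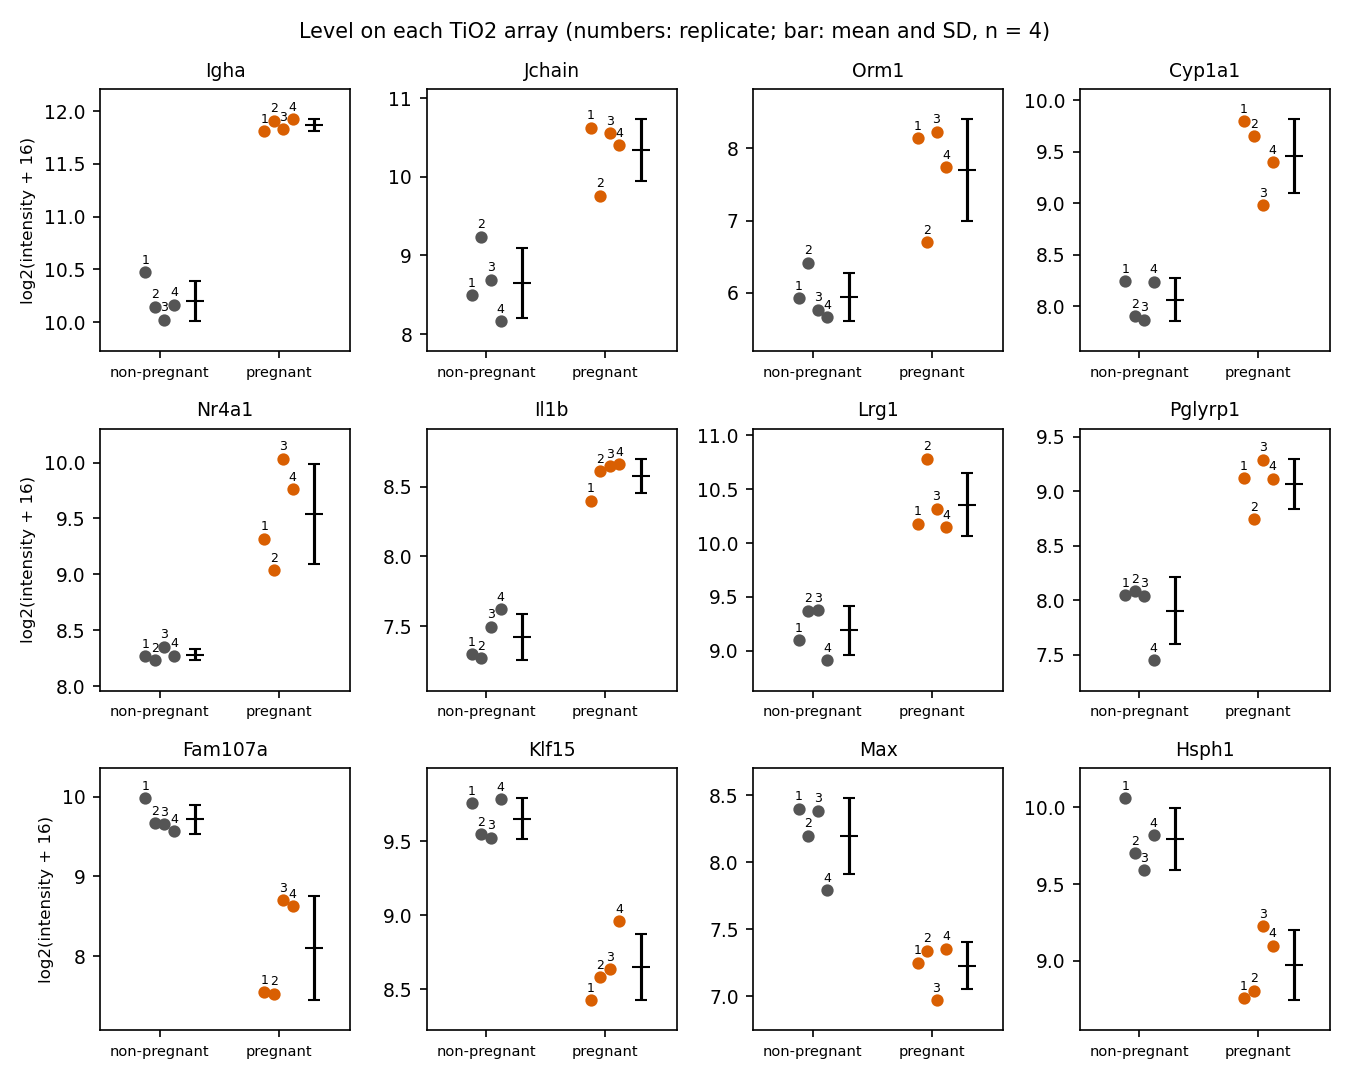
Levels of 12 genes as log2(intensity + 16) on the 4 non-pregnant (grey) and 4 pregnant (orange) TiO2 arrays, numbered by replicate, with the mean and SD of each group beside the points (n = 4). In all 12 the groups are apart; pregnant replicate 2 is the lowest of its group for Jchain (9.76) and Orm1 (6.70) and the highest for Lrg1 (10.78).

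Several neutrophil transcripts rose. Of 24 granule and surface genes tested, 8 were called higher and 0 lower, 22 lay above 0 and the median was 0.51. Lrg1, a leucine-rich glycoprotein of neutrophil granules and acute-phase serum, was at 10.18, 10.78, 10.32 and 10.14 in pregnant and 9.10, 9.37, 9.38 and 8.91 in non-pregnant lungs. No values overlapped, and the rise was 1.17 ± 0.16 (limma adjusted p = 0.00343). Pglyrp1, a granule protein that binds bacterial peptidoglycan, read 9.12, 8.74, 9.29 and 9.11 against 8.05, 8.09, 8.04 and 7.45. Its groups were also apart, and it rose by 1.16 ± 0.16 (limma adjusted p = 0.00376). Cd177, a surface protein of neutrophils, rose by 1.15 ± 0.25, and Clec4e, the Mincle receptor for mycobacterial and damage-associated lipids, by 1.07 ± 0.18 (limma adjusted p = 0.0288 and 0.00994). The remaining 4 were S100a9, a calcium-binding protein abundant in neutrophil cytosol (0.98), the iron-binding granule protein Ltf (0.91), the G-CSF receptor Csf3r (0.74) and the formyl peptide receptor Fpr2 (0.51), the latter 3 chosen after their values were seen. S100a8, the partner of S100a9, was at 10.92 to 11.46 in pregnant and 10.18 to 11.10 in non-pregnant lungs, overlapping, and was not called (0.63 ± 0.21, limma adjusted p = 0.109). Camp (0.06) and Ngp (−0.01), granule genes of maturing neutrophils, were not called. Without pregnant TiO2 replicate 2 the list had 7 calls and a median of 0.49, and without the 3 arrays of low Glycam1 it had 1 call and a median of 0.44.

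The cytokine Il1b, the macrophage and neutrophil product that drives recruitment, gave one of the tightest differences. Pregnant arrays read 8.40, 8.61, 8.64 and 8.66 and non-pregnant arrays 7.30, 7.27, 7.50 and 7.62. The gap between the nearest values was wider than the range within either group, and the rise was 1.15 ± 0.14 (limma adjusted p = 0.00331). Among 22 genes of the interleukin 1 family and inflammasome, Il1b was the 1 called, and the median was 0.18. Of 34 chemokines and receptors, 4 were called higher and 0 lower, with a median of 0.25: the monocyte attractants Ccl9 (0.75 ± 0.12) and Ccl8 (0.73 ± 0.17), and the ligand and receptor pair Cxcl16 (0.44 ± 0.08) and Cxcr6 (0.55 ± 0.13). Their limma adjusted p were 0.00942, 0.043, 0.0217 and 0.0446. With the most variable probe set none of the 4 was called, and Cxcr6 was at 0.92 (limma adjusted p = 0.051). The neutrophil chemokine Cxcl1 was at 7.05 to 7.86 in pregnant and 6.90 to 7.73 in non-pregnant lungs, with a difference of 0.23 ± 0.25 that was not called (limma adjusted p = 0.629). Cxcl2, Cxcl5, Ccl2, Ccl3, Il6 and Tnf did not pass the filter on low values, with levels from 4.04 to 6.21 on the 8 arrays. In the fit without that filter, their differences lay between −0.14 and 0.65 and none was called (limma adjusted p from 0.149 to 0.822).

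Acute-phase genes gave 4 rises and 0 falls among 19 tested, with a median of 0.40. Orm1, the alpha-1-acid glycoprotein, was at 8.14, 6.70, 8.23 and 7.74 in pregnant and 5.92, 6.42, 5.77 and 5.67 in non-pregnant lungs. Replicate 2 of each group lay nearest the other group, without overlap, and the rise was 1.76 ± 0.39 (limma adjusted p = 0.0314; 2.09 and 0.0147 without pregnant replicate 2). Lbp, which hands endotoxin to CD14, rose by 0.42 ± 0.10 (limma adjusted p = 0.0446), beside Lrg1 and Pigr given above. Lbp lost the call with its most variable probe set (0.11, limma adjusted p = 0.784) and without pregnant replicate 2 (0.40, limma adjusted p = 0.0728). The serum amyloid Saa3 (0.85 ± 0.32), the siderophore-binding Lcn2 (0.73 ± 0.19) and haptoglobin, Hp (0.05), were not called; for Saa3 and Lcn2 the limma adjusted p was 0.158 and 0.0655.

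Platelet transcripts also rose in part, with 6 of 20 called higher, 0 lower, 18 above 0 and a median of 0.55. Clec1b, the platelet receptor for podoplanin, read 8.09, 8.16, 8.40 and 8.37 in pregnant and 6.98, 7.13, 7.58 and 6.97 in non-pregnant lungs. The groups did not overlap, and the rise of 1.09 ± 0.13 (limma adjusted p = 0.00331) was called in all 16 fits that left out 1 array. Ppbp, the precursor of a platelet chemokine, rose by 1.05 ± 0.22, the platelet lipoxygenase Alox12 by 0.79 ± 0.13 and the platelet tubulin Tubb1 by 0.65 ± 0.13 (limma adjusted p = 0.0288, 0.0096 and 0.0261). Gp5, part of the von Willebrand factor receptor complex, and Itgb3, a chain of the fibrinogen receptor, completed the 6 at 0.63 each; both were chosen after their values were seen. Erythroid genes gave 0 calls among 10, with a median of 0.29. Without pregnant TiO2 replicate 2 the platelet list had 6 calls (median 0.60), and without the 3 arrays of low Glycam1 it had 0 (median 0.48).

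Macrophage and complement genes rose in part. Marco, the scavenger receptor by which alveolar macrophages bind bare particles, was at 6.12, 6.26, 6.02 and 6.36 in pregnant and 4.14, 4.77, 4.13 and 4.24 in non-pregnant lungs. All 4 pregnant values were clear of the non-pregnant ones, which sat near the floor of 4, so the size of the difference is uncertain. It was 1.87 ± 0.38 (limma adjusted p = 0.0255, and up to 0.0763 with 1 array left out). After PBS the pregnant arrays were at 6.06 to 6.40 and the non-pregnant ones at 6.55, 4.23, 5.54 and 4.17, so 2 non-pregnant arrays without particles were as low. The list of 32 macrophage genes had 6 called higher, 0 lower and a median of 0.27. Beside Marco these were F13a1, the transglutaminase subunit that monocytes and platelets carry (0.78 ± 0.15, limma adjusted p = 0.0239), Gpnmb (0.43, chosen after its value was seen) and the 3 chains of C1q, the recognition molecule of the classical complement pathway. General macrophage markers such as Csf1r (0.11), Adgre1 (0.14), Mertk (−0.03) and Siglecf (−0.07) were not called.

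The 3 C1q chains rose by like amounts. C1qa was at 9.96, 9.95, 10.02 and 10.15 in pregnant and 9.53, 9.43, 9.58 and 9.61 in non-pregnant lungs, a rise of 0.48 ± 0.09. C1qc, at 9.11, 9.33, 9.28 and 9.22 against 8.76, 8.64, 8.70 and 8.79, rose by 0.51 ± 0.09, and C1qb, chosen after its value was seen, by 0.46 ± 0.11. None of the 3 overlapped, and their limma adjusted p were 0.0239, 0.00994 and 0.0466. The complement list had 5 called higher and 0 lower of 19, with a median of 0.44; the others were Cfb, the protease of the alternative pathway (0.69 ± 0.14), and Clu, an inhibitor of the terminal complex (0.52 ± 0.11), with limma adjusted p of 0.0264 and 0.0302. With its most variable probe set Clu was at 0.59 and not called (limma adjusted p = 0.0583). Without pregnant TiO2 replicate 2 there were 7 complement calls, and without the 3 arrays of low Glycam1 there were 0, with medians of 0.40 and 0.37.

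**Figure D3:**
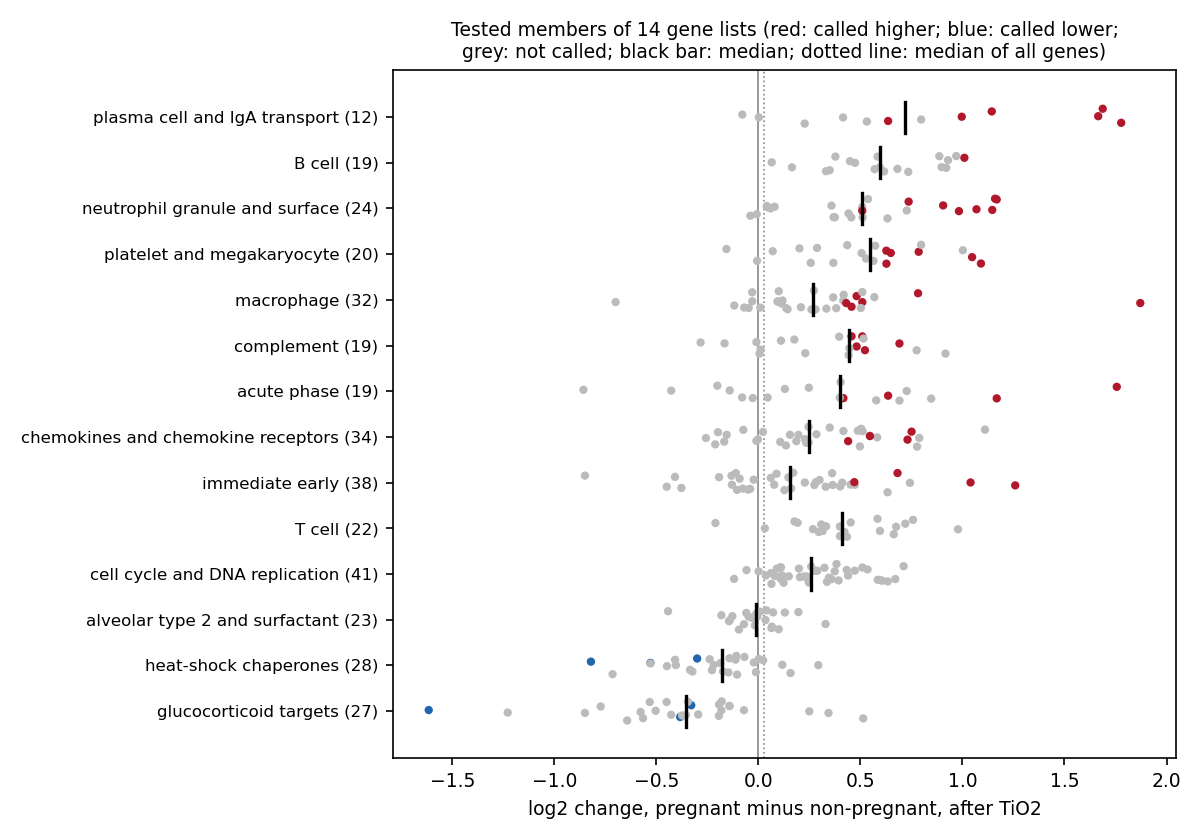
Each point is a tested member of 1 of 14 gene lists (number tested in brackets), placed by its log2 difference of pregnant minus non-pregnant mice after TiO2; red members were called higher, blue lower, black bars are list medians and the dotted line is the median of all genes, 0.03. Plasma cell, neutrophil and platelet medians lie at 0.72, 0.51 and 0.55, while heat-shock and glucocorticoid medians lie at −0.18 and −0.35.

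Of the aryl hydrocarbon receptor list, with 7 tested, Cyp1a1 was called higher and Tiparp lower. Cyp1a1 is the cytochrome that this receptor induces most strongly, and it read 9.80, 9.65, 8.98 and 9.40 in pregnant and 8.25, 7.90, 7.87 and 8.24 in non-pregnant lungs. The groups were apart by more than the range within the non-pregnant group, and the rise was 1.39 ± 0.19 (limma adjusted p = 0.00376). Tiparp, an ADP-ribosyltransferase that the receptor induces and that restrains it, read 9.46, 9.68, 9.56 and 9.63 against 10.22, 10.17, 10.39 and 10.02. All pregnant values lay lower, by 0.61 on average (−0.61 ± 0.10, limma adjusted p = 0.00957). Cyp1a1 and Tiparp were called in all 16 fits that left out 1 array, but with its most variable probe set Tiparp was at −0.36 and lost the call (limma adjusted p = 0.568). The other members, Aldh3a1 (−0.73), Nqo1 (−0.02), Arnt (0.10), Ahr (0.14) and Cyp1b1 (0.24), were not called. A RefSeq promoter (GRCm38.p6) was found for 128 of the genes called higher and 51 of those called lower. The 250 bases before each start are shown because the pair moved in opposite directions; capitals mark GCGTG, the core of the element the receptor binds, or its reverse complement.
Cyp1a1, chr9:57697363-57697612, plus strand: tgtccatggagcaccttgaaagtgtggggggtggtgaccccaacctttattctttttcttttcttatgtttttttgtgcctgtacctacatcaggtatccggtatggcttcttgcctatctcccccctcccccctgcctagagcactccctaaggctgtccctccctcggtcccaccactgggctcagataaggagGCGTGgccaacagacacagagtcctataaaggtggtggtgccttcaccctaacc
Tiparp, chr3:65528197-65528446, plus strand: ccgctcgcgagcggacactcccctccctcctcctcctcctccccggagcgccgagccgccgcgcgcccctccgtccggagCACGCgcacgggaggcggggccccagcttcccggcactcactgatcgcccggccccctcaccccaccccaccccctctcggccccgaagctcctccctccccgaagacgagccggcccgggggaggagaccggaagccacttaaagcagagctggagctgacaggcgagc

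Each holds 1 match, 54 bases before the start in Cyp1a1 and 170 in Tiparp. GCGTG on either strand occurs in 32.4% of all 32851 RefSeq promoter windows of 300 bases, so its presence in both is a description and sets neither apart.

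Immediate early genes, which serum, stretch and stress switch on within minutes, were called in 4 of 38 cases, all higher, with a median of 0.15. Nr4a1, an orphan nuclear receptor, was at 9.32, 9.04, 10.04 and 9.77 in pregnant and 8.27, 8.23, 8.35 and 8.27 in non-pregnant lungs. The non-pregnant arrays lay close together and well below all 4 pregnant ones, and the rise was 1.26 ± 0.17 (limma adjusted p = 0.00343). Ccn1, a matrix-associated growth regulator, rose by 1.04 ± 0.16, Ier3 by 0.68 ± 0.11 and the AP-1 subunit Junb by 0.47 ± 0.11 (limma adjusted p = 0.00881, 0.00942 and 0.034). Junb was not called in the fit with the most variable probe set of each gene (limma adjusted p = 0.0585). Fos (0.13), Jun (−0.09), Egr1 (0.36) and Dusp1 (−0.19), usual members of the same response, were not called. The Nr4a1 promoter (RefSeq, GRCm38.p6) is shown for its repeated TGACG, the conserved part of the cAMP response element; capitals mark it or its reverse complement.
Nr4a1, chr15:101266596-101266845, plus strand: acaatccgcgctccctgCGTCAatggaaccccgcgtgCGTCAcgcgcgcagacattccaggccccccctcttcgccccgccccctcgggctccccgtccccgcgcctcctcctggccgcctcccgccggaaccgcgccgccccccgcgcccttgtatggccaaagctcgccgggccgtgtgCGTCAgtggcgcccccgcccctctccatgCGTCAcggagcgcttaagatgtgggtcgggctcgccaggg

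It holds 4 matches, 233, 213, 69 and 40 bases before the start. TGACG occurs on either strand in 20.8% of all promoter windows, in 31.1% of those of tested genes, and in 18 of the 31 immediate early genes with a window (58.1%).

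The largest fall belonged to a list of genes that glucocorticoids are known to induce. Of its 27 tested, 24 lay below 0 with a median of −0.35, 3 were called lower and 0 higher. Fam107a, a cytoskeletal stress-response protein, was at 7.55, 7.53, 8.70 and 8.62 in pregnant and 9.98, 9.66, 9.65 and 9.56 in non-pregnant lungs. Pregnant values formed a lower and an upper pair, both under every non-pregnant value, and the fall was −1.62 ± 0.40 (limma adjusted p = 0.0491). Nfkbia, the inhibitor that holds NF-kB in the cytoplasm, was at 12.24 to 12.36 against 12.57 to 12.80 and fell by 0.38 (−0.38 ± 0.09, limma adjusted p = 0.0325). Klf9, a transcription factor directly induced by the glucocorticoid receptor, was at 11.90 to 12.02 against 12.23 to 12.35 and fell by 0.33 (−0.33 ± 0.08, limma adjusted p = 0.0491). Tsc22d3 (−0.77), Ddit4 (−1.23), Fkbp5 (−0.64) and Per1 (−0.37) were not called, nor were the metallothioneins Mt1 (0.51) and Mt2 (0.34). These 3 calls were close to the threshold: without pregnant TiO2 replicate 2 the list had 0 calls, with limma adjusted p of 0.0812, 0.051 and 0.0846, and a median of −0.31. With the most variable probe set of each gene none of the 3 was called: Fam107a was at −1.62 (limma adjusted p = 0.0644), Nfkbia at −0.05 and Klf9 at −0.09. Without the 3 arrays of low Glycam1 the list had 0 calls and a median of −0.22.

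Klf15, a metabolic transcription factor outside the list, showed the next largest fall among called genes. It read 8.43, 8.58, 8.63 and 8.96 in pregnant and 9.76, 9.55, 9.52 and 9.79 in non-pregnant lungs. The groups were apart, and the difference was −1.0 ± 0.16 (limma adjusted p = 0.00942, called in all 16 fits that left out 1 array). Max, the obligate partner of Myc, was at 7.25, 7.34, 6.97 and 7.35 against 8.40, 8.20, 8.38 and 7.79. Non-pregnant replicate 4 was the nearest to the pregnant group, and the fall was −0.96 ± 0.14 (limma adjusted p = 0.00528). Ap2b1, a clathrin adaptor subunit (−0.96 ± 0.22), Lmcd1, a LIM-domain transcriptional cofactor (−0.78 ± 0.14), Elmo1, which acts with Dock proteins in cell engulfment and migration (−0.74 ± 0.18), and the microtubule-binding Eml4 (−0.72 ± 0.15) followed, with limma adjusted p of 0.0391, 0.0131, 0.0476 and 0.0289. The other named falls, Syde2, Ccdc71l, Fam117b, Spsb1, Retreg3, Arrdc3 and Trp53inp1, lay between −0.74 and −0.62. With the most variable probe set of each gene, Ap2b1 was at −0.96, Elmo1 at −0.71, Spsb1 at −0.43 and Retreg3 at −0.45. None of these was called there (limma adjusted p = 0.0567, 0.22, 0.313 and 0.312). Arrdc3 was at −0.63 and Trp53inp1 at −1.39, also not called (limma adjusted p = 0.0503 and 0.0851).

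Heat-shock chaperones lay lower in 23 of 28 cases, with a median of −0.18, 3 called lower and 0 higher. Hsph1, a nucleotide exchange factor for Hsp70, was at 8.76, 8.80, 9.23 and 9.10 in pregnant and 10.06, 9.70, 9.59 and 9.82 in non-pregnant lungs. No pregnant value reached the non-pregnant range, and the fall was −0.82 ± 0.17 (limma adjusted p = 0.0261). With its most variable probe set Hsph1 was at −0.92 and not called (limma adjusted p = 0.0644). Dnaja1, an Hsp40 co-chaperone, read 10.81, 10.74, 10.92 and 10.78 against 11.69, 11.21, 11.30 and 11.17, a difference of −0.53 ± 0.11 (limma adjusted p = 0.0263) that was −0.08 (limma adjusted p = 0.862) with its most variable probe set. Hspa8, the constitutive Hsp70, was at −0.30 ± 0.07 (limma adjusted p = 0.0466), but its direction turned to 0.18 (limma adjusted p = 0.801) when its most variable probe set stood for it. The inducible Hspa1b (−0.71), Hspa1a (−0.45) and Dnajb1 (−0.41) overlapped between groups and were not called. Without pregnant TiO2 replicate 2 there were 2 calls, and without the 3 arrays of low Glycam1 there were 0, with a median of −0.11. The promoters of Hsph1 and Dnaja1 (RefSeq, GRCm38.p6) are shown because both members were called lower; capitals mark TTCNNGAA or GAANNTTC, the paired units of the heat-shock element, each of which reads the same on both strands.
Hsph1, chr5:149636337-149636586, minus strand: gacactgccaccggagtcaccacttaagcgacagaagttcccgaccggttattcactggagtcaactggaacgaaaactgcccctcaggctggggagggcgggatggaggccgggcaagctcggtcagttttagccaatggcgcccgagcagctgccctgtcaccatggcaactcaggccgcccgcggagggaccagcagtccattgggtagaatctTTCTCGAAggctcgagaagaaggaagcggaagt
Dnaja1, chr4:40722218-40722467, plus strand: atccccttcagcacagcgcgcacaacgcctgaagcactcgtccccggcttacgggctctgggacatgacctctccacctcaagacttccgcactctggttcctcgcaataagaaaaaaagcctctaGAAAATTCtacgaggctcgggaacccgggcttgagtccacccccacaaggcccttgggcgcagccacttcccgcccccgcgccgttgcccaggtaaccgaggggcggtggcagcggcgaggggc

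The match in Hsph1 lies 33 bases before the start, and 2 further matches, which overlap each other, lie 36 and 41 bases after it, outside the stretch shown. That in Dnaja1 lies 124 bases before the start. GAANNTTC occurs in 7.86% of all promoter windows, 5.49% of those of tested genes and 9 of 24 heat-shock genes with a window (37.5%). For TTCNNGAA, the unit marked in Hsph1, these are 8.52%, 6.78% and 3 of 24 (12.5%).

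Among other lists, 2 carriers of the hypoxia and glycolysis list were called higher: Slc2a3, a high-affinity glucose transporter, at 0.78 ± 0.13 and the lactate exporter Slc16a3 at 0.86 ± 0.16 (limma adjusted p = 0.0096 and 0.0208), while the median of the 26 genes was 0.07. Of hormone and growth factor genes, 1 of 25 was called: Igfbp2, a binding protein for insulin-like growth factors, at 10.93 to 11.23 in pregnant and 10.28 to 10.62 in non-pregnant lungs (0.64 ± 0.13, limma adjusted p = 0.0261). The receptors Esr1 (0.60) and Pgr (0.33) were not. Of this list 4% were called, against 1.88% of all genes. Antioxidant genes gave 2 calls of 35, the glutathione peroxidase Gpx4 (0.43 ± 0.10) and sulfiredoxin, Srxn1 (0.46 ± 0.10), with limma adjusted p of 0.0372 and 0.0276. Both lost the call with the most variable probe set, Gpx4 at 0.18 and Srxn1 at 0.21 (limma adjusted p = 0.673 and 0.595). The haem oxygenase Hmox1 was at −0.17 ± 0.17 (limma adjusted p = 0.583). Cell-cycle genes lay above 0 in 39 of 41 cases with a median of 0.26 and 0 calls. Alveolar type 2, club cell and collagen lists had 0 calls and medians of −0.01, 0.14 and −0.05. The cardiac list had 3 rises among 19, the contractile genes Casq2 (0.77), Tnni3 (0.62) and Tnnt2 (0.48), with a median of 0.18. With the most variable probe set Casq2 kept the call (limma adjusted p = 0.046). Tnni3 and Tnnt2 lost it (limma adjusted p = 0.068 and 0.0905). Fast skeletal muscle and squamous lists had medians of −0.70 and −0.68 with 0 calls; without pregnant TiO2 replicate 2 these were 0.12 and 0.03. Of the 22 placental genes listed, 1 passed the filter on low values, and it was not called.

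The same contrast after PBS, which shares no array with that after TiO2, called 129 genes (1.04%), 100 higher (0.808%) and 29 lower (0.234%), and in 5.76% of all genes the PBS groups did not overlap; with values as deposited the split was 38 higher and 0 lower. Of the genes called after TiO2, 37 were called in the same direction after PBS and 0 in the opposite one, which is 15.9% of the TiO2 calls and 28.7% of the PBS calls; 35 of them were higher and 2 lower. Of the 170 rises, 145 were above 0 after PBS (85.3%, against 51.8% of all genes), and of the 63 falls, 49 were below 0 (77.8%). The TiO2 change was the larger in 144 of the 170 rises and 62 of the 63 falls, a count that picking genes on the TiO2 contrast favours. Over the 12369 genes, which share libraries and are not independent, Pearson's r between the contrasts was 0.251 and Spearman's rho was 0.195. Non-pregnant PBS replicates 3 and 4 held thymus transcripts: the thymus marker Prss16 was at 8.98 and 9.72, against at most 6.32 on the other arrays. Without both, 249 genes were called after PBS, 91 of them among the 129. Their part in the overlap and the correlation was not tested.

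Each list's own values after PBS are given beside those after TiO2, with no test between lists. All 6 platelet calls and 6 of the 8 neutrophil calls were also called after PBS, where the neutrophil median was 0.73 and the platelet median 0.59. Nr4a1 rose by like amounts, 1.26 after TiO2 and 1.33 after PBS (limma adjusted p = 0.00143), as did Il1b, 1.15 and 1.38 (limma adjusted p = 0.000762). Of the immunoglobulin genes, 1 was called after PBS, Igha (1.27, limma adjusted p = 0.0104), and their PBS median was 0.70. None of the 5 complement calls, all rises, and none of the 6 heat-shock and glucocorticoid calls, all falls, was called after PBS. Of all TiO2 calls, 35 of 170 rises and 2 of 63 falls were, so counts of 0 among so few genes set neither group apart.

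Whether the pregnancy effect differed between particles and vehicle was tested as an interaction in the same limma fit, and 0 of 12369 genes were called; 1352 had an unadjusted p under 0.05, and the lowest adjusted p was 0.232. Without non-pregnant PBS replicate 2, whose labels conflict over pregnancy, 2 genes were called and 1849 had an unadjusted p under 0.05. Without non-pregnant PBS replicates 3 and 4, which held thymus transcripts, 0 were called and 1244 had an unadjusted p under 0.05. In the fit of all 16 arrays no gene can be called particular to TiO2. Cyp1a1 had one of the lowest p: pregnant arrays after PBS read 8.55, 8.32, 8.81 and 9.19 and non-pregnant ones 8.78, 8.24, 8.37 and 8.58, overlapping, with a change of 0.22. Its TiO2 effect exceeded this by 1.17 (95% interval 0.58 to 1.75, limma adjusted p = 0.232). At the same adjusted p, C1qa differed by 0.57 (0.28 to 0.85), Igfbp2 by 0.80 (0.41 to 1.19) and the protein C receptor Procr by 0.50 (0.27 to 0.72). For Orm1 the difference was 1.78 (0.61 to 2.95) and for Igkv8-30 1.36 (0.31 to 2.41), with limma adjusted p of 0.356 and 0.389. For Nr4a1 it was −0.08 (−0.58 to 0.43) and for Il1b −0.23 (−0.66 to 0.21), intervals that leave room for differences of either sign.

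**Figure D4:**
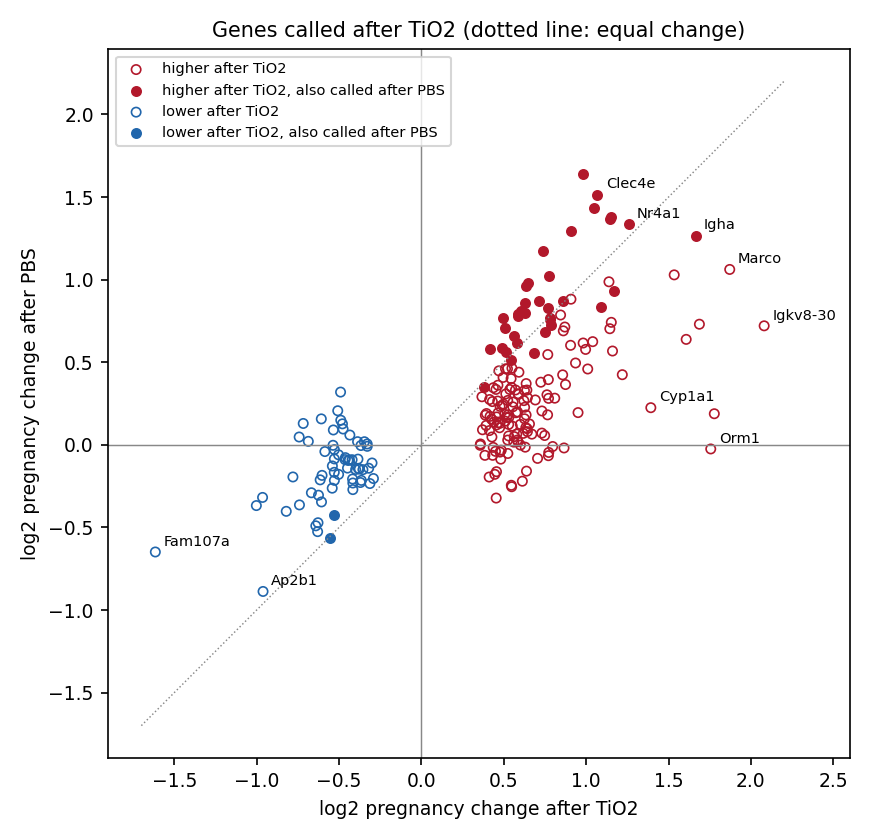
The 233 genes called after TiO2, with their log2 pregnancy change after TiO2 on the x axis and after PBS on the y axis; filled points were also called after PBS, and the dotted line marks equal change. Of the 170 rises 145 lie above 0 on the y axis, Nr4a1 lies near the line, and Orm1 (−0.02 after PBS) and Cyp1a1 (0.22) lie far to its right.

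Called rises and falls differed in gene size, a property the fit did not use. The genomic span from first to last base of the gene, from RefSeq on GRCm38.p6, had a median of 13.4 kb for genes called higher, 53.8 kb for those called lower and 23.9 kb for all genes tested. The tested genes were divided by span into 4 groups of like size. In the group with the shortest spans (up to 10.1 kb), 2.34% were called higher and 0.13% lower, and in that with the longest (57 kb and more), 0.616% and 0.941%. The median change of all genes went from 0.10 in the shortest group through 0.05 and 0.00 to −0.04 in the longest. After PBS these medians were 0.01, 0.01, 0.01 and 0.00. Spans over 100 kb belonged to 22 of the 62 lower genes with a span (35.5%) and to 13.4% of all genes. Called genes differed in level too: the median was 8.03 for those called higher, 9.47 for those called lower and 8.3 for all tested. The rises included 9 of the 11 immunoglobulin genes tested. The part of level and of immunoglobulin genes in the span difference was not tested. The 18S signal was 101 in pregnant and 358 in non-pregnant TiO2 arrays, and 77.9 in pregnant and 140 in non-pregnant PBS arrays. Its part in the span difference was not tested.

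**Figure D5:**
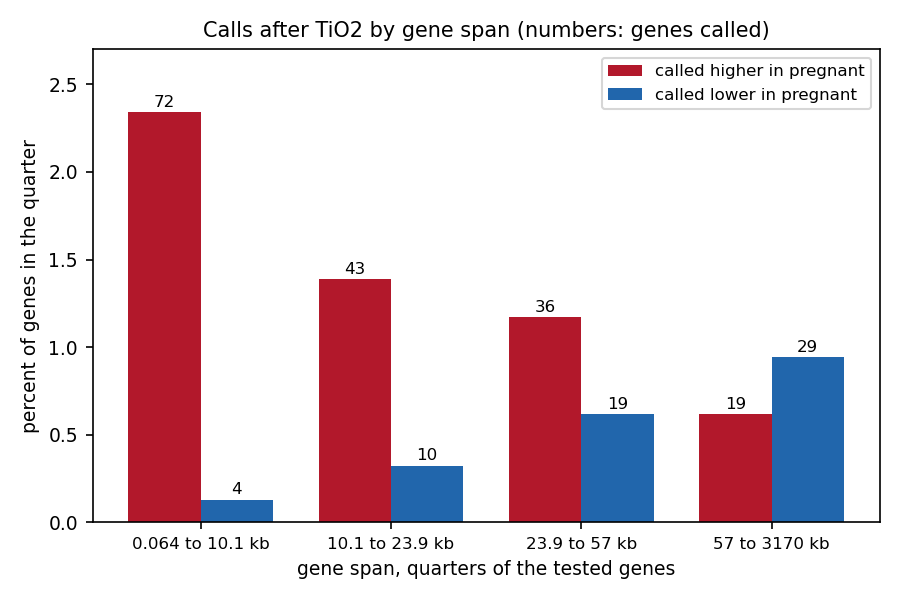
Percent of genes called higher (red) and lower (blue) in pregnant lungs after TiO2, in 4 groups of the tested genes by genomic span in kb, with the number called above each bar. Calls higher go down from 72 to 19 and calls lower go up from 4 to 29 between the shortest and the longest group.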

How the data were processed

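Total lung RNA of 16 samples was hybridised to Affymetrix mouse 430 2.0 arrays, 4 in each of 4 groups. The deposited values are linear signal intensities per probe set, not on a log2 scale. The submitters' processing notes name GCOS, MAS5 and RMA; the sources used here do not say which of them made the intensities, in which order or version. Non-pregnant PBS replicate 2 is called pregnant by its source name and non-pregnant by its gestation label; it was placed by the latter and enters the PBS contrast, the difference between the TiO2 and PBS contrasts, the normalization and the spread estimate.

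From the deposited intensities, quantile-normalized values were taken to log2(value + 16) in R 4.3.3. The table has 45101 probe sets; 64 controls were left out. Of the rest, 34945 have 1 gene symbol in the platform annotation, 932 several and 9160 none, and 34741 matched a RefSeq gene. Probe sets above the array's median on at least 4 of 16 arrays were kept (23995, of which 21248 have 1 symbol), and the one with the highest mean stood for each of 12369 genes. Of the 233 called genes, 91 have other kept probe sets, which all had the same sign in 79.

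limma 3.58.1 was fitted to the 4 groups over all 16 arrays (12 residual and 3.61 prior degrees of freedom), with Benjamini-Hochberg adjustment over all genes and a threshold of 0.05. The fit was tested on simulated data. The number of arrays limits the precision. The members and the 46 gene lists were chosen with earlier results of these data known. Lists were described by counts and medians only. Named genes were taken from the 15 largest called rises and 15 largest called falls without overlap, up to 4 called members per list and direction (or, with none called, up to 2 of smallest p), and a set of inflammatory genes; other names were chosen after their values were seen. Alternatives covered scaling, filter, pseudocount, probe set choice, arrays used, array weights and each array left out. Leaving out the 3 arrays of unlike tissue content and taking Glycam1 as a covariate were chosen after seeing the data.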

Additional observations from a re-analysis of the deposited data

Results flagged for a closer look

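In 13 of 232 groups of 4 TiO2 arrays (116 named genes, each in pregnant and non-pregnant mice), 1 array lay so far from its neighbour that the gap took more than 0.829 of the range of the group. Chance alone gives such a gap in about 5 groups of every 100.

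Pregnant TiO2 replicate 2 was the lone array for Glycam1 (4.15, next 10.56), the squamous keratin Krt4 (5.41, next 11.96), the airway secretory protein Bpifb1 (9.39, next 10.11) and calponin, Cnn1 (9.14, next 9.64), low in each case. Pregnant replicate 1 was high for Clu (11.66, next 11.49) and low for the lung chemokine Cxcl15 (12.64, next 12.70).

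Among non-pregnant TiO2 arrays, replicate 2 was high for Marco (4.77, next 4.24) and for the neutrophil gelatinase Mmp9 (7.74, next 7.23). Replicate 4 was low for Pglyrp1 (7.45, next 8.04) and high for Srxn1 (7.62, next 7.50). Replicate 1 was low for the class II chaperone H2-DMb2 (7.57, next 8.30) and high for Hspa8 (13.01, next 12.87), and replicate 3 was high for Syde2 (9.27, next 9.09).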

How the results depend on the processing

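The 233 calls after TiO2 became 21 with values as deposited, 141 with no filter on low values, 118 with the most variable probe set of each gene (97 shared), 483 from the 8 TiO2 arrays alone (200 shared), 420 without the PBS arrays that held thymus transcripts, 1505 with array weights, 25 with a change of at least 1 log2 and 5 without the arrays low in Glycam1. Leaving out 1 array gave 52 to 382. Of the alternatives chosen after seeing the data, leaving out the 3 arrays of unlike tissue content gave 428 (193 shared) and Glycam1 as a covariate 52 (49 shared). The 129 PBS calls became 38, 80 and 249 with values as deposited, the most variable probe set and no thymus arrays, 22 at 1 log2, 295 without the unlike arrays, and 71 to 219 with 1 array left out. The difference between particles and vehicle had 1 call with no filter, 4 without the unlike arrays and 0 to 2 with 1 array left out (2 without non-pregnant PBS replicate 2). With the most variable probe set 4 of the 233 changed sign, Hspa8 (0.18) being the 1 of them named here. The cause of these changes was not tested, beyond the fewer samples or genes that some alternatives use. Of 3596 checks of single genes, 2873 kept direction and side of the threshold, 646 lost the call, 72 gained one, 4 moved and 1 reversed. No paired analysis was possible because the replicate numbers only follow accession order.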

Other observations

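Among the genes called lower after TiO2, 9 of cell adhesion, matrix or cytoskeleton were picked by hand after their values were seen, so they form no tested group. They were the integrin chains Itga6 (−0.61 ± 0.15) and Itga8 (−0.36 ± 0.08), the laminin chains Lamc1 (−0.46 ± 0.10) and Lama2 (−0.33 ± 0.08), the matrix proteins Abi3bp (−0.56 ± 0.11) and Prelp (−0.42 ± 0.09), and, inside the cell, the intermediate filament protein Synm (−0.44 ± 0.08), the non-muscle myosin Myh10 (−0.42 ± 0.07) and utrophin, Utrn (−0.38 ± 0.09). Picking from the calls fixed that all 9 passed limma's test, with Benjamini-Hochberg adjusted p from 0.00942 for Myh10 to 0.0453 for Itga6. In each the pregnant and non-pregnant values did not overlap, as in 228 of the 233 called genes. Abi3bp was also called after PBS (−0.57, limma adjusted p = 0.0208), and Itga8 was at −1.01 without a call (limma adjusted p = 0.0957) with its most variable probe set. The list of collagen chains had 0 calls of 27, that of elastic fibres 0 lower and 1 higher of 17 (Emilin2, 0.71 ± 0.13, limma adjusted p = 0.0127), and the integrin chain Itgb3 (0.63) and the matrix-associated Ccn1 (1.04) were called higher.

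Of 76 mitochondrial ribosomal protein genes, a set also chosen after the data were seen, 66 lay above 0 after TiO2. Their median was 0.18, against −0.01 after PBS. Of all genes, 55.5% lay above 0 after TiO2 and 1.37% were called higher. Called higher were Mrpl54 (0.87 ± 0.18), Mrpl33 (0.64 ± 0.13) and Mrpl12 (0.60 ± 0.15), with limma adjusted p of 0.0264, 0.0288 and 0.0476.

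Further lists with 1 call included those of motile cilia (Cfap126, 0.64, 1 of 32), interferon-stimulated genes (Oasl1, 0.56, 1 of 38), endothelial genes (the growth factor Vegfb, 0.64, 1 of 44), mast cells and basophils (the histamine-forming enzyme Hdc, 0.46, 1 of 6), other cytokines (Tgfb1, 0.41, 1 of 14), MHC class II presentation (H2-DMb2, 0.95, 1 of 19), alternative macrophage activation (Clec7a, 0.54, 1 of 18) and alveolar type 1 cells (Igfbp2, 0.64, 1 of 22). The shares called were 3.12%, 2.63% and 2.27% for cilia, interferon-stimulated and endothelial genes, against 1.88% of all genes. They were 16.7% for mast cells and basophils, 7.14% for other cytokines and 5.56% for alternative macrophage activation. For MHC class II presentation and alveolar type 1 cells they were 5.26% and 4.55%. Each of these shares rests on 1 call, and no list was tested against the others. With the most variable probe set of each gene, Cfap126, Vegfb, Hdc, Tgfb1 and H2-DMb2 lost the call (limma adjusted p from 0.0538 to 0.19). Oasl1, Clec7a and Igfbp2 kept it. Among myeloid C-type lectins, Clec4e, Clec1b and the beta-glucan receptor Clec7a were called of 23, and among Toll-like receptors and adaptors the cofactor Ly86 (0.57) and Lbp of 23. Elsewhere, Ch25h, which makes 25-hydroxycholesterol, was at 0.81 ± 0.13 and Adap1, an ARF6-directed GTPase regulator, at 0.77 ± 0.12 (limma adjusted p = 0.00881 and 0.00741), both chosen after their values were seen. Across all 46 lists 946 genes were tested and 68 called, 60 higher and 8 lower, so that 165 called genes lay outside them.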
